A study of Arabidopsis thaliana with 12 samples.

Results

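The genes described here encode the enzymes of the Calvin cycle and of photorespiration in Arabidopsis (Arabidopsis thaliana) plants that overexpress or lack KLU, a cytochrome P450 of the CYP78A family. They were chosen from a list of 43 locus identifiers, 24 for the Calvin cycle (with the Rubisco small subunits, Rubisco activase and the CP12 proteins) and 19 for photorespiration, and all 43 were found among the 33323 genes of the expression table. The 12 poly(A) RNA libraries came from 4 genotypes with 3 individual plants each, grown under short days and harvested at 35 days after germination. The labels name the tissue as leaf, whereas the methods describe harvest of whole rosettes, and which of these holds cannot be told from the labels. The genotypes were 35S:KLU1 and 35S:KLU2, klu, and the wild type Col-0. 35S:KLU1 and 35S:KLU2 are independent transgenic lines that carry a KLU-GFP fusion under the 35S promoter, which is active in most tissues, and both are in the Col-0 background. The name 35S:KLU stands for both lines. klu is a T-DNA insertion line, also in Col-0. The values are FPKM, a fragment count scaled by transcript length and by library size, which puts genes and libraries on a similar but not identical scale. Summed over all genes, FPKM ranged between 1110149 and 1194277 among the libraries.

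The Calvin cycle fixes CO2 onto ribulose-1,5-bisphosphate through Rubisco, reduces the product to triose phosphate, and regenerates the acceptor in the chloroplast stroma. When Rubisco takes oxygen in place of CO2, it forms phosphoglycolate, which photorespiration returns to the cycle as glycerate through steps in chloroplasts, peroxisomes and mitochondria, with release of CO2 and ammonium. Both routes run together in illuminated mesophyll cells, and many of their genes are known to be induced by light.

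Each of the 43 genes passed the filter on low values (at least 0.5 FPKM in at least 3 libraries), along with 19660 genes in all. The lowest single value of any of them was 3.38 FPKM, for TKL2 in klu replicate 1. KLU itself stood at 1729 to 2890.3 FPKM in the 6 35S:KLU libraries, at 0.13 to 0.22 in klu and at 5.42 to 6.26 FPKM in Col-0, which matched the labels of 35S:KLU, klu and Col-0. Its means in 35S:KLU1 and 35S:KLU2 were 2051 ± 286 and 2518 ± 448 FPKM (SD), too close to check which line a library came from. The relative worth of 1 fragment, read from the smallest values, ranged between 0.887 and 1.45 times that of Col-0 replicate 1, so that depth differed by less than a factor of 2 among libraries, with 35S:KLU2 replicate 2 the shallowest. The leaf mesophyll markers CAB1, CA1 and CAB3 were abundant in every library, and the sums of 3 root markers and of 3 flower markers did not pass 1.1 FPKM anywhere. One library stood apart. klu replicate 1 had 9.0 FPKM summed over 6 shoot apex markers, against 33.1 to 54.7 FPKM in the other 11 libraries. It held the highest value of the 12 libraries for 31 of the 43 enzyme genes (72.1%), but for 7.9% of all genes tested. Its value was the lowest of the 12 for 40.1% of all genes tested, but for 3 of the 43 (7.0%), so it differed from the others well beyond these enzymes. Another library, 35S:KLU1 replicate 1, held the lowest value for 28 of the 43 (65.1%), against 7.3% of all genes tested. For the comparisons with klu, medians and selected fold changes are also given without klu replicate 1 beside the results. Some results are given without 35S:KLU1 replicate 1 as well.

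The levels of the 43 genes covered a wide range. RBCS1A, a nuclear gene for the small subunit of Rubisco, was the highest, at 20734 ± 1020 FPKM in 35S:KLU (SD, n = 6), 22736 ± 2990 in klu and 21965 ± 1030 FPKM in Col-0 (n = 3 each). RBCS3B, RCA, RBCS1B, RBCS2B and CP12-1 followed with means over all libraries between 2252 and 5390.3 FPKM, and RBCS1B, RBCS2B and CP12-1 among them did not differ beyond their spread. The lowest Calvin cycle genes were CP12-3, at 15.6 FPKM, and TKL2, at 6.50 FPKM. Among the photorespiration genes SHM1 had the highest mean, 1122 FPKM, and GGT2 the lowest, 47.1 FPKM. In sum, the 24 Calvin cycle genes accounted for 3.63% to 4.27% of all FPKM in 35S:KLU, 4.0% to 5.31% in klu and 4.28% to 4.60% in Col-0. The 19 photorespiration genes accounted for 0.602% to 0.672% in 35S:KLU, 0.680% to 0.827% in klu and 0.731% to 0.752% in Col-0. For photorespiration, the highest 35S:KLU library therefore lay below every library of klu and of Col-0. The same held for the Calvin cycle genes without the RBCS genes. These accounted for 1.22% to 1.36% in 35S:KLU, 1.44% to 1.77% in klu and 1.56% to 1.61% in Col-0.

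**Figure D1:**
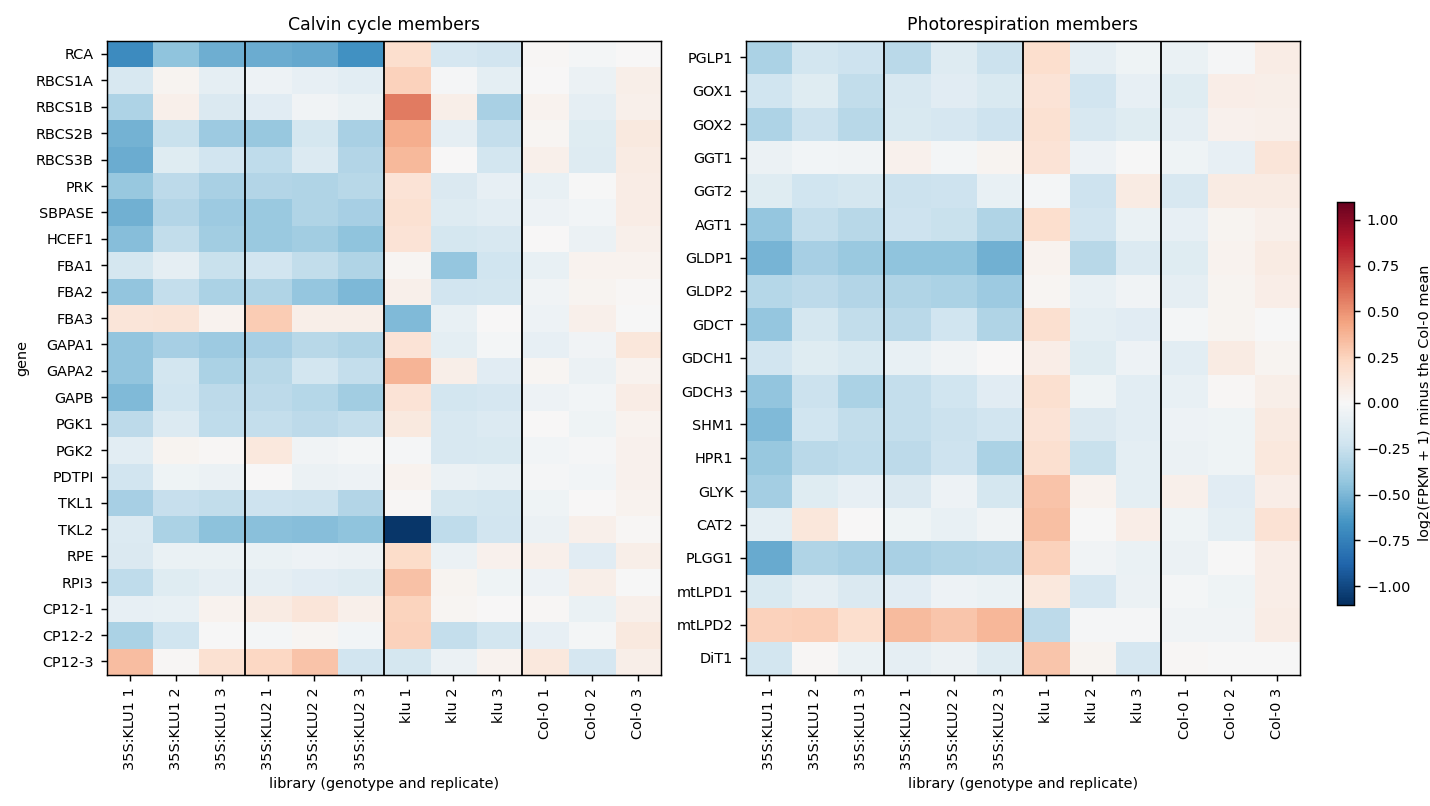
Level of each of the 43 genes in each library, as log2(FPKM + 1) minus the mean of the 3 Col-0 libraries (colour scale; blue is lower). Columns are libraries, with the 6 35S:KLU libraries on the left, then klu and Col-0. Most genes are blue in all 6 35S:KLU columns, RBCS1A, PGK2, CP12-1 and GGT1 stay pale, and mtLPD2 is red. klu replicate 1 is the highest library for 31 of the 43 genes.

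The promoters shown are those of RCA, HCEF1, RBCS2B and GLDP1, each of which held an I-box (GATAAG), a G-box (CACGTG) or both. Many photosynthesis genes are known to be driven from these 2 short light-responsive elements. All 43 genes were found in the RefSeq annotation of TAIR10.1, and the 250 bases before each annotated start were searched for both motifs and for the evening element (AAAATATCT), on both strands. RCA, the gene of Rubisco activase and the one with the largest decrease, lies on chromosome 2, and its window is the minus strand of chr2:16573693-16573942. HCEF1 encodes the chloroplast fructose-1,6-bisphosphatase, and its window is the plus strand of chr3:20016587-20016836. RBCS2B, a Rubisco small subunit gene that did not pass the test, has its window on the minus strand of chr5:15382072-15382321. GLDP1, the P protein of glycine decarboxylase and the photorespiration gene with the largest decrease against Col-0, has its window on the minus strand of chr4:15931423-15931672. The sequences run 5′ to 3′ towards the gene, and capitals mark I-boxes (GATAAG, or CTTATC where it is on the other strand) and G-boxes.
RCA: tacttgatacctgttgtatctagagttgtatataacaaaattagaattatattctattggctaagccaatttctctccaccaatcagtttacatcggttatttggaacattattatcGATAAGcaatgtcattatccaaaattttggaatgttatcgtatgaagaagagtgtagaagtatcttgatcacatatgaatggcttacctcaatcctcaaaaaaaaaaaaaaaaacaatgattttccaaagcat
HCEF1: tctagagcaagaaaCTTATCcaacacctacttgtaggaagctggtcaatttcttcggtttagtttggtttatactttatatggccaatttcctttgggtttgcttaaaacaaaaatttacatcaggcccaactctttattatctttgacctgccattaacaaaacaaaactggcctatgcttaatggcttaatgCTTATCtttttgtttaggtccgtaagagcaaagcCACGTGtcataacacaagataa
RBCS2B: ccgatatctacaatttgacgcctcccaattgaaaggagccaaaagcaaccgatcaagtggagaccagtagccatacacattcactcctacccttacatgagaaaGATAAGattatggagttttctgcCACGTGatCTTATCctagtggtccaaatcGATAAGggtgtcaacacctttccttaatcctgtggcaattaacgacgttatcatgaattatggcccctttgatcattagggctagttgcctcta
GLDP1: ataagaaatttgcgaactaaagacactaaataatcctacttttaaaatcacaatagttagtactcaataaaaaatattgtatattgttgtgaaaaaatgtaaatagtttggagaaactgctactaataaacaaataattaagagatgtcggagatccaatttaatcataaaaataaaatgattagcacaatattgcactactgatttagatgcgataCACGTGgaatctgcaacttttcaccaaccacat
RCA had 1 I-box, 133 bases before the start. RBCS2B had 3 I-boxes, 146, 115 and 94 bases before the start, with a G-box at 123 between them. HCEF1 had 2 I-boxes, at 236 and 56, and a G-box at 22, and GLDP1 had a G-box at 33. The windows of SBPASE, FBA2, GAPA1 and PLGG1, which also fell, held none of these motifs. Neither did those of FBA3 and mtLPD2, which were higher in 35S:KLU than in klu. Over all 43 genes, 6 windows held an I-box (14.0%, against 12.29% of 27443 annotated promoters of this length) and 7 held a G-box (16.3%, against 6.49%). None held the evening element, which 2.36% of all promoters had. A G-box was present in 3 of the 19 genes that were lower in 35S:KLU than in Col-0 and in 4 of the 24 others, and an I-box in 3 of each. A match gives letters in this window only and does not show a binding site. The windows hang on the annotated starts, so a motif past the start or further upstream would be missed.

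To ask how the Calvin cycle genes responded to KLU overexpression, both 35S:KLU lines were compared with Col-0 in a limma model of log2(FPKM + 1) over all 12 libraries, with Benjamini-Hochberg adjustment over the 19660 genes. A gene with an adjusted p under 0.05 was taken as a differentially expressed gene (DEG). Of the 24 Calvin cycle genes 9 were DEGs and all 9 were lower in 35S:KLU, whereas 19.6% of all genes tested were DEGs, 8.18% lower and 11.4% higher. The 9 were RCA, SBPASE, HCEF1, FBA2, GAPA1, PRK, GAPB, TKL1 and PGK1, and they fell by 0.25 to 0.57 on the log2 scale. The median over the 24 genes was -0.26, against 0.03 over all genes tested, and 21 of the 24 fold changes were negative. In 14 of the 24 the 6 35S:KLU libraries all lay below the 3 Col-0 libraries, which held for 11.8% of all genes tested (15.6% lay above). Bulk RNA cannot tell fewer cells that express a gene from less RNA per cell.

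**Figure D2:**
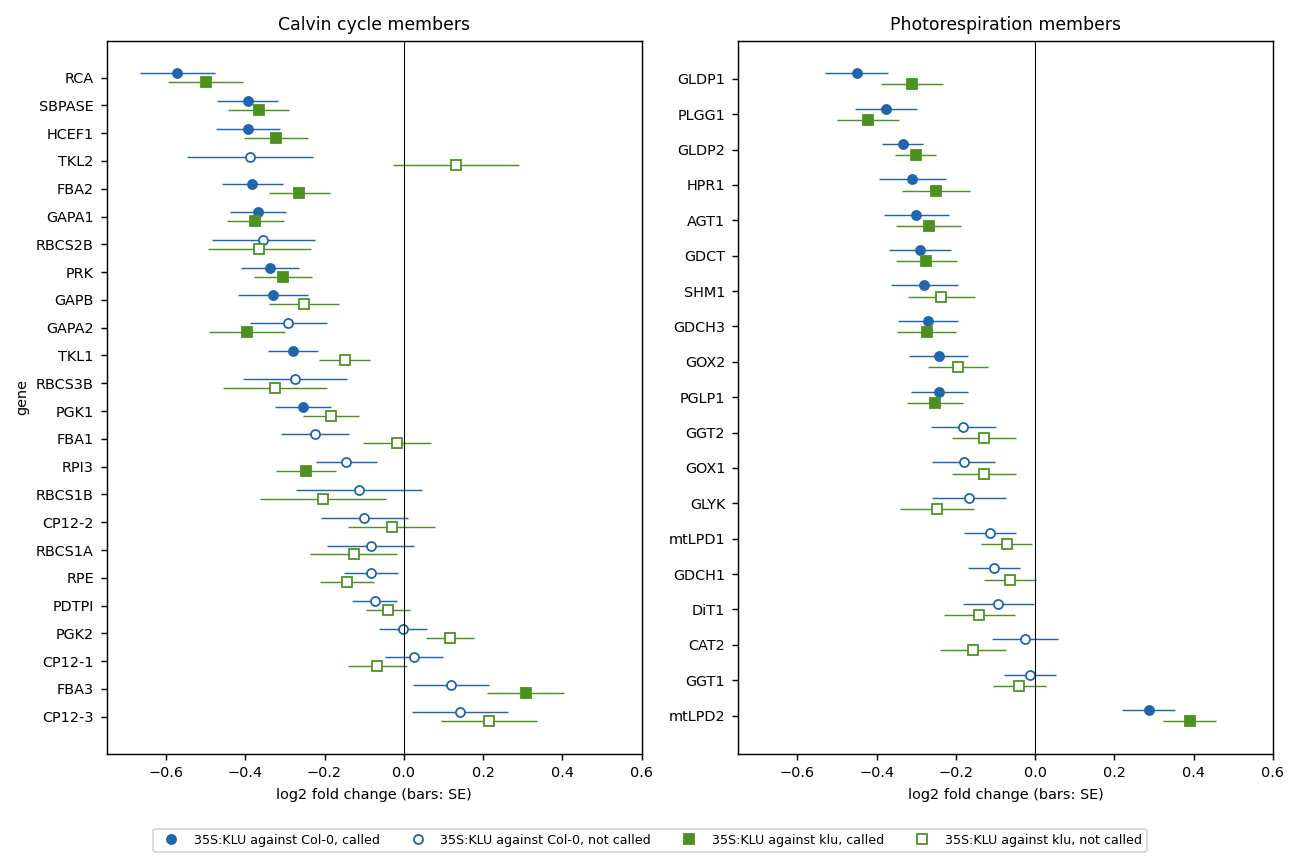
Log2 fold change of each gene in 35S:KLU (mean of both lines) against Col-0 (circles) and against klu (squares), on the log2(FPKM + 1) scale with SE bars. Filled symbols are DEGs (limma, adjusted p under 0.05). RCA has the largest decrease of the Calvin cycle genes, -0.57 against Col-0 and -0.50 against klu, and mtLPD2 is the only photorespiration gene to the right of 0.

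RCA (AT2G39730) encodes Rubisco activase, which frees the active sites of Rubisco from inhibitory sugar phosphates, and its decrease was the largest of all 43 genes. It had 2184, 2595 and 2430.5 FPKM in 35S:KLU1, with 2415, 2386 and 2224 in 35S:KLU2, against 4005, 3089.9 and 3040.1 in klu and 3547, 3476 and 3538 in Col-0. All 6 35S:KLU libraries lay below all 6 others, and the 35S:KLU mean was 67.4% of that of Col-0 and 70.2% of that of klu. RCA fell by 0.57 ± 0.10 (SE) on the log2 scale against Col-0 (limma adjusted p = 0.00198) and by 0.50 ± 0.10 against klu (adjusted p = 0.00272).

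Enzymes that regenerate the CO2 acceptor fell too. SBPASE (AT3G55800), sedoheptulose-1,7-bisphosphatase, had 428, 495 and 468 FPKM in 35S:KLU1, with 467, 492 and 479 in 35S:KLU2, against 698, 561 and 573 in klu and 597, 607 and 657 in Col-0. The 35S:KLU libraries did not overlap with the others, and their mean was 76.1% of the Col-0 mean (log2 fold change -0.39 ± 0.08, adjusted p = 0.00470). HCEF1 (AT3G54050), the chloroplast fructose-1,6-bisphosphatase, had 462, 531 and 492 FPKM in 35S:KLU1, with 481, 490.4 and 471 in 35S:KLU2, against 712, 561 and 567 in klu and 643, 612 and 668 in Col-0. Here too the groups were separate, and the mean in 35S:KLU was again 76.1% of that in Col-0 (-0.39 ± 0.08, adjusted p = 0.00573). PRK (AT1G32060), phosphoribulokinase, which makes ribulose-1,5-bisphosphate, had 613, 667 and 637 FPKM in 35S:KLU1, with 652, 649 and 659 in 35S:KLU2, against 908, 729 and 768 in klu and 772, 816 and 866 in Col-0. Its highest 35S:KLU value, 667 FPKM, lay below the lowest of the others, 729 FPKM in klu replicate 2 (-0.34 ± 0.07, adjusted p = 0.00768 against Col-0, -0.31 ± 0.07, adjusted p = 0.00936 against klu).

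The chloroplast has several aldolases, which join triose phosphates. FBA2 (AT4G38970), the most abundant, had 1424, 1603 and 1511 FPKM in 35S:KLU1, with 1526, 1429.7 and 1364 in 35S:KLU2, against 1993, 1664 and 1671 in klu and 1871, 1961 and 1934 in Col-0. It was lower in each 35S:KLU library than in any other library (-0.38 ± 0.08, adjusted p = 0.00506). FBA1 (AT2G21330) had 579, 619 and 559 FPKM in 35S:KLU1, with 573, 549 and 527 in 35S:KLU2, against 672, 494 and 568 in klu and 626, 682 and 681 in Col-0, so that 35S:KLU lay below Col-0 but overlapped with klu, and it was not a DEG in either comparison (-0.22 ± 0.09, adjusted p = 0.0871 against Col-0). FBA3 (AT2G01140) went the other way. It had 98.97, 99.8 and 92.8 FPKM in 35S:KLU1, with 109.8, 94.2 and 94.4 in 35S:KLU2, against 64.1, 85.1 and 90.7 in klu and 86.9, 94.2 and 90.05 in Col-0, overlapping with Col-0, and it was higher in 35S:KLU than in klu (0.31 ± 0.10, adjusted p = 0.0345), the only Calvin cycle gene to pass the test in this direction. TKL1 (AT3G60750), the main transketolase, had 643, 693 and 685 FPKM in 35S:KLU1, with 709, 703 and 663 in 35S:KLU2, against 835, 724 and 718 in klu and 803, 832 and 852 in Col-0 and fell against Col-0 (-0.28 ± 0.06, adjusted p = 0.0101) but was not a DEG against klu (adjusted p = 0.105).

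The reductive phase is carried out by phosphoglycerate kinase and by a glyceraldehyde-3-phosphate dehydrogenase built of GAPA and GAPB (AT1G42970) subunits. GAPA1 (AT3G26650) had 1108, 1166 and 1138 FPKM in 35S:KLU1, with 1165, 1212 and 1194 in 35S:KLU2, against 1666, 1392 and 1479.5 in klu and 1413, 1466 and 1633 in Col-0. It was lower in 35S:KLU than in Col-0 (-0.37 ± 0.07, adjusted p = 0.00455) and in klu (-0.37 ± 0.07, adjusted p = 0.00277), with no overlap. GAPA2 (AT1G12900), the second gene for this subunit, had 949, 1115 and 1010.0 FPKM in 35S:KLU1, with 1039.8, 1119.6 and 1074 in 35S:KLU2, against 1664, 1342 and 1181 in klu and 1306, 1230.1 and 1319 in Col-0. Its values did not overlap either, but its decrease passed the test against klu (-0.40 ± 0.10, adjusted p = 0.0104) and narrowly missed it against Col-0 (-0.29 ± 0.10, adjusted p = 0.0529). GAPB had 693, 835 and 793 FPKM in 35S:KLU1, with 795, 780.5 and 746 in 35S:KLU2, against 1078, 844 and 855 in klu and 932, 952 and 1030.3 in Col-0. It lay below all other libraries in 35S:KLU and was a DEG against Col-0 (-0.33 ± 0.09, adjusted p = 0.0220), with adjusted p = 0.0533 against klu. PGK1 (AT3G12780) had 843, 932 and 851 FPKM in 35S:KLU1, with 859, 846 and 862 in 35S:KLU2, against 1112, 915 and 931 in klu and 1037, 999.7 and 1061 in Col-0, lower than in Col-0 (-0.25 ± 0.07, adjusted p = 0.0259), while its paralog PGK2 (AT1G56190) was at 160.2 to 188 FPKM in 35S:KLU, 153 to 172 in klu and 169.9 to 179 FPKM in Col-0 (-0.0016 ± 0.06, adjusted p = 0.988, 95% confidence interval -0.13 to 0.13).

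The genes of the Rubisco small subunit did not pass the test in any comparison. RBCS1A (AT1G67090) had 19400.5, 22469 and 20534 FPKM in 35S:KLU1, with 21116, 20613 and 20274 in 35S:KLU2, against 26090.3, 21773 and 20345 in klu and 21968, 20934 and 22992 in Col-0, and the genotypes overlapped (log2 fold change -0.08 ± 0.11, adjusted p = 0.638 against Col-0, 95% confidence interval -0.32 to 0.16). The other small subunit genes lie side by side on chromosome 5. RBCS1B (AT5G38430) had 2016, 2650.1 and 2282 FPKM in 35S:KLU1, with 2332, 2481 and 2428 in 35S:KLU2, against 3793, 2658 and 1988 in klu and 2620.0, 2376 and 2654 in Col-0, also with overlap (-0.11 ± 0.16, adjusted p = 0.667). RBCS2B (AT5G38420) had 1769, 2143 and 1924 FPKM in 35S:KLU1, with 1909, 2226 and 1989.7 in 35S:KLU2, against 3347, 2369.5 and 2116 in klu and 2576, 2324 and 2743 in Col-0. Each 35S:KLU library of RBCS2B lay below each Col-0 library, but its spread was wide (-0.35 ± 0.13, adjusted p = 0.0760, 95% confidence interval -0.64 to -0.07). RBCS3B (AT5G38410) had 3965, 5289.6 and 5022 FPKM in 35S:KLU1, with 4778, 5232 and 4649 in 35S:KLU2, against 7444, 5811 and 5034 in klu and 6034, 5247 and 6178 in Col-0 (-0.27 ± 0.13, adjusted p = 0.165, interval -0.56 to 0.01). RBCS3B shares 12.1% of its 100-base stretches with RBCS1B, so the division of fragments between these genes is less certain than for the others. Among all 12 libraries, klu replicate 1 was the highest for all 4 small subunit genes.

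CP12 proteins bind glyceraldehyde-3-phosphate dehydrogenase and PRK into an inactive complex in the dark. CP12-1 (AT2G47400) had 2055, 2077 and 2254 FPKM in 35S:KLU1, with 2339.7, 2409 and 2278 in 35S:KLU2, against 2604, 2229.8 and 2200.0 in klu and 2213, 2087 and 2281 in Col-0. The 35S:KLU and Col-0 libraries overlapped, with a fold change near 0 (0.03 ± 0.07, adjusted p = 0.842, 95% confidence interval -0.14 to 0.19). CP12-2 (AT3G62410) had 497, 541 and 629 FPKM in 35S:KLU1, with 623, 642 and 617 in 35S:KLU2, against 755, 527 and 547 in klu and 595, 623 and 679 in Col-0 (-0.10 ± 0.11, adjusted p = 0.568). CP12-3 (AT1G76560), expressed at far lower levels, had 19.1, 15.02 and 16.9 FPKM in 35S:KLU1, with 17.7, 18.8 and 12.8 in 35S:KLU2, against 12.9, 14.2 and 15.4 in klu and 16.3, 13.04 and 15.7 in Col-0 (0.14 ± 0.12, adjusted p = 0.452). No gene of this family passed the test in any comparison. Of the remaining genes, PDTPI (AT2G21170), triose phosphate isomerase, and RPE (AT5G61410), ribulose phosphate epimerase, were not DEGs against Col-0 or klu, with fold changes between -0.14 and -0.04. RPI3 (AT3G04790), a ribose-5-phosphate isomerase, was at 121 to 138 FPKM in 35S:KLU, 143 to 184 in klu and 142 to 154 FPKM in Col-0, and was lower than in klu (-0.25 ± 0.08, adjusted p = 0.0322) but not a DEG against Col-0 (adjusted p = 0.208).

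**Figure D3:**
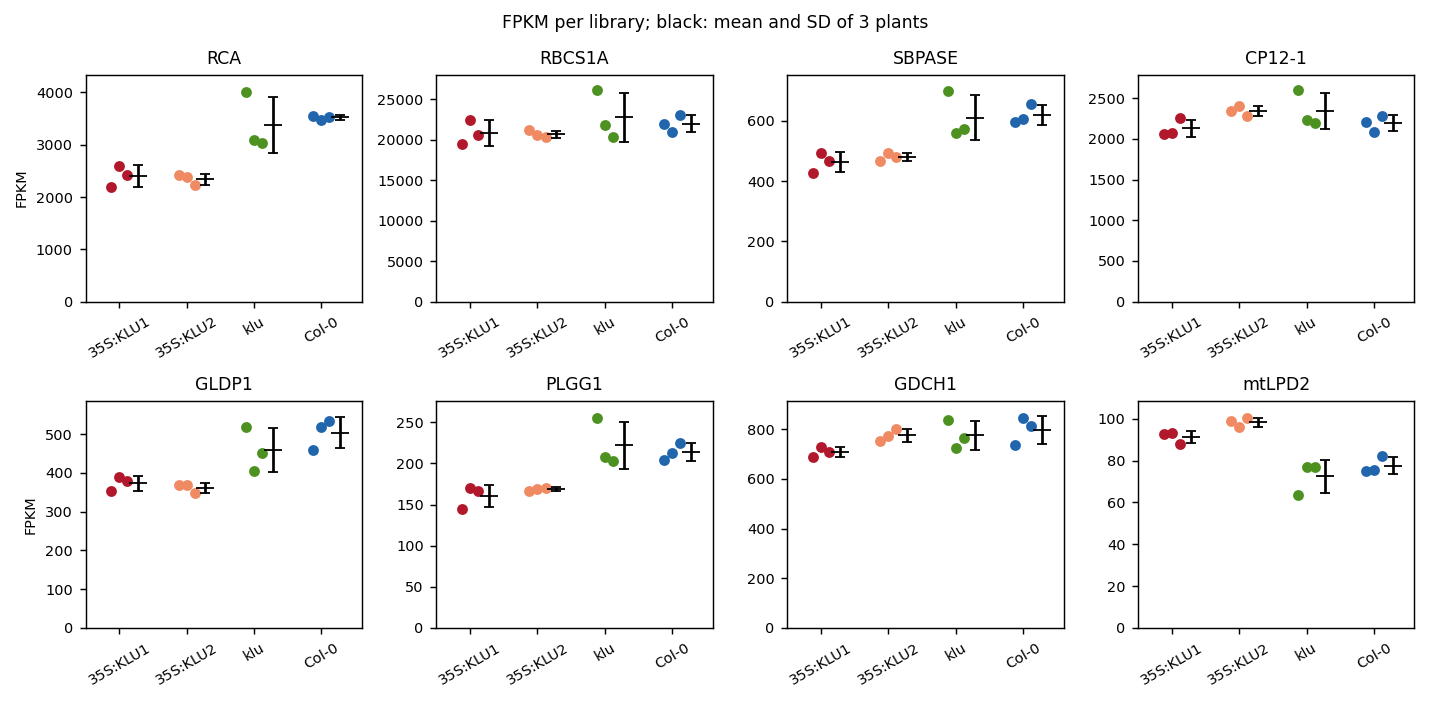
FPKM in every library (points, 3 plants per genotype, axes from 0) with the genotype mean and SD in black, for 4 Calvin cycle genes (top) and 4 photorespiration genes (bottom). RCA, SBPASE, GLDP1 and PLGG1 are lower in both 35S:KLU lines than in klu and Col-0 with no overlap, RBCS1A, CP12-1 and GDCH1 overlap between genotypes, and mtLPD2 is higher in 35S:KLU.

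Against klu, 9 of the 24 Calvin cycle genes were DEGs, 8 lower in 35S:KLU (RCA, GAPA2, GAPA1, SBPASE, HCEF1, PRK, FBA2 and RPI3) and FBA3 higher, beside 26.6% of all genes tested as DEGs, 10.7% lower and 15.9% higher. The median was -0.19, against 0.04 over all genes. In 10 of the 24 genes all 35S:KLU libraries lay below the klu libraries (9.79% of all genes tested), and in FBA3 all lay above (14.5%). RCA, SBPASE, HCEF1, FBA2, GAPA1 and PRK were DEGs in both comparisons, which share the 35S:KLU libraries. The fold changes against klu were smaller without klu replicate 1, with a median of -0.12 (-0.03 over all genes tested) and RCA at -0.37, SBPASE at -0.27 and PRK at -0.21. Without 35S:KLU1 replicate 1 the median was -0.16 against klu and -0.23 against Col-0. The calls of RCA, GAPA1, GAPA2, SBPASE, HCEF1 and PRK against klu were kept under all 20 alternatives tried. Without klu replicate 1 the 3 others, FBA2, FBA3 and RPI3, were no longer DEGs (adjusted p = 0.0647 to 0.117), with FBA3 at 0.16, FBA2 at -0.18 and RPI3 at -0.14, and each of them was also lost without 35S:KLU1 replicate 1 (adjusted p = 0.0527 to 0.0675). Against Col-0, GAPB and PGK1 were lost when any of the 3 Col-0 libraries was left out (adjusted p = 0.0506 to 0.0942), PGK1 also without 35S:KLU1 replicate 1, 35S:KLU1 replicate 3 or 35S:KLU2 replicate 3 (0.0501 to 0.0565), and the other 7 were DEGs under all 20 alternatives. With limma library weights, which gave klu replicate 1 the lowest weight, 14 Calvin cycle genes were DEGs against Col-0, while the share over all genes tested was 31.2%.

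The photorespiration genes that passed the test were lower in 35S:KLU with 1 exception. Of 19 genes 11 were DEGs between 35S:KLU and Col-0, 10 lower (GLDP1, PLGG1, GLDP2, HPR1, AGT1, GDCT, SHM1, GDCH3, GOX2 and PGLP1) and 1 higher, mtLPD2, where 19.6% of all genes tested were DEGs. The median fold change was -0.24 (0.03 over all genes), and mtLPD2 was the only one of the 19 with a positive value. In 11 genes the 35S:KLU libraries all lay below the Col-0 libraries (11.8% of all genes tested), and in mtLPD2 they all lay above. Against klu 9 were DEGs, 8 lower (PLGG1, GLDP1, GLDP2, GDCT, GDCH3, AGT1, PGLP1 and HPR1) and mtLPD2 higher, beside 26.6% of all genes tested, with a median of -0.24 (0.04 over all genes). All 9 were also DEGs against Col-0.

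The count against Col-0 depended on single libraries. The count was 11 with all libraries, and 6, 3 and 4 when Col-0 replicates 1, 2 and 3 were dropped in turn, 5 and 7 on dropping 35S:KLU1 replicates 1 and 3, and 7 and 6 on dropping 35S:KLU2 replicates 1 and 3. The share over all genes tested also fell on dropping the Col-0 replicates, from 19.6% to 11.2%, 11.2% and 13.5% in the same order. On dropping the 35S:KLU libraries named it fell to 15%, 15.6%, 15.4% and 14.5%, again in the same order. Scaling the columns by the median of ratios gave 4, with 22.7% of all genes called. klu replicate 1 is not part of the comparison with Col-0 but enters the spread that the model shares among comparisons. Without it 28.5% of all genes tested were called against Col-0. Without 35S:KLU1 replicate 1 the median fold change was -0.22. GLDP1, GLDP2 and PLGG1 were DEGs under all 20 alternatives. AGT1, GDCT, GDCH3, SHM1, HPR1, GOX2 and PGLP1 were lost without Col-0 replicate 2, as was mtLPD2 (adjusted p = 0.0590 to 0.143), and these 7 were lost without Col-0 replicate 3 as well (0.0626 to 0.152). Against klu the count was 4 without klu replicate 1, namely GLDP1, GLDP2, PLGG1 and mtLPD2, each of which was a DEG under all 20 alternatives. The other 5 had adjusted p = 0.0591 to 0.181 without that library, with fold changes of -0.19 to -0.14, and the median over the 19 genes was -0.13. Over all genes tested the share called against klu was 24.1% without it. GLDP1 then stood at -0.22, PLGG1 at -0.32 and mtLPD2 at 0.30, and HPR1 was a DEG against klu under 4 of the 20 alternatives.

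Glycine decarboxylase, the mitochondrial complex that splits glycine into CO2, ammonium and a methylene group, is made of P, T, H and L proteins, and not all of its genes passed the test or had the same direction. GLDP1 (AT4G33010), for the P protein, had 352, 389 and 379 FPKM in 35S:KLU1, with 369, 369 and 347 in 35S:KLU2, against 517, 405 and 452 in klu and 459, 517 and 534 in Col-0. The mean in 35S:KLU was 73.0% of the Col-0 mean, with every 35S:KLU library below all others (-0.45 ± 0.08, adjusted p = 0.00258 against Col-0, -0.31 ± 0.08, adjusted p = 0.0129 against klu). GLDP2 (AT2G26080), the second P protein gene, had 92.2, 93.96 and 92.1 FPKM in 35S:KLU1, with 91.5, 90.2 and 87.3 in 35S:KLU2, against 117, 109 and 112 in klu and 107, 118 and 121 in Col-0. Its libraries were tightly spaced and separate, and it fell as well (-0.33 ± 0.05, adjusted p = 0.00143 against Col-0, -0.30 ± 0.05, adjusted p = 0.00152 against klu).

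GDCT (AT1G11860), the T protein, had 652, 764 and 724 FPKM in 35S:KLU1, with 713, 751 and 696 in 35S:KLU2, against 990.01, 814 and 805 in klu and 862, 892 and 873 in Col-0, lower than in Col-0 (-0.29 ± 0.08, adjusted p = 0.0212). Of the genes for the H protein, GDCH3 (AT1G32470) had 533, 611 and 565 FPKM in 35S:KLU1, with 602, 619 and 659 in 35S:KLU2, against 811, 697 and 664 in klu and 680.5, 727 and 755 in Col-0 and was lower too (-0.27 ± 0.07, adjusted p = 0.0255), whereas GDCH1 (AT2G35370), the more abundant in every library, had 688, 728 and 709 FPKM in 35S:KLU1, with 752, 774 and 801 in 35S:KLU2, against 838, 724 and 765 in klu and 736, 846 and 812 in Col-0 and was not a DEG (-0.10 ± 0.07, adjusted p = 0.294, 95% confidence interval -0.25 to 0.04). Every 35S:KLU library lay below every Col-0 library for GDCT and GDCH3, but not for GDCH1. The difference between GDCH1 and GDCH3 was not tested.

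The L protein, dihydrolipoyl dehydrogenase, differs from the others in that it also serves mitochondrial 2-oxoacid dehydrogenases such as the pyruvate dehydrogenase complex. mtLPD2 (AT3G17240) had 92.7, 93.2 and 88.1 FPKM in 35S:KLU1, with 98.8, 95.99 and 100.3 in 35S:KLU2, against 63.4, 76.7 and 77.01 in klu and 75.2, 75.3 and 82.2 in Col-0. All 6 35S:KLU libraries lay above all 6 others, at 122% of the Col-0 mean and 131% of the klu mean (0.29 ± 0.07, adjusted p = 0.0119 against Col-0, 0.39 ± 0.07, adjusted p = 0.00151 against klu). Its increase against Col-0 no longer passed the test when Col-0 replicate 1 or Col-0 replicate 2 was left out. mtLPD1 (AT1G48030), the more abundant paralog, was at 189.8 to 205 FPKM in 35S:KLU, 188 to 232 in klu and 206 to 224 FPKM in Col-0, below every Col-0 library but not a DEG (-0.11 ± 0.06, adjusted p = 0.242). SHM1 (AT4G37930), the mitochondrial serine hydroxymethyltransferase that works with the complex, had 886, 1065 and 1028 FPKM in 35S:KLU1, with 1029, 1047 and 1070.5 in 35S:KLU2, against 1376, 1105 and 1139 in klu and 1193, 1195 and 1328 in Col-0 and was lower than in Col-0 (-0.28 ± 0.08, adjusted p = 0.0377), with adjusted p = 0.0579 against klu.

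In the chloroplast, PLGG1 (AT1G32080), the translocator that exports glycolate and takes up glycerate, had 145, 169.8 and 167 FPKM in 35S:KLU1, with 167, 169 and 170.4 in 35S:KLU2, against 255, 208 and 203 in klu and 204, 213 and 225 in Col-0. Its 35S:KLU libraries lay below all others, at 77.0% of the Col-0 mean and 74.2% of the klu mean (-0.38 ± 0.08, adjusted p = 0.00667 against Col-0, -0.42 ± 0.08, adjusted p = 0.00235 against klu). PGLP1 (AT5G36700), phosphoglycolate phosphatase, had 137, 152 and 149 FPKM in 35S:KLU1, with 142, 158 and 148 in 35S:KLU2, against 198, 163 and 169 in klu and 167, 173 and 185 in Col-0 (-0.24 ± 0.07, adjusted p = 0.0335 against Col-0). All of its 100-base stretches occur in a near-identical neighbour, AT5G36790, so fragments of both genes cannot be told apart, and that copy was lower as well (-0.28 ± 0.07, adjusted p = 0.0220). GLYK (AT1G80380), glycerate kinase, and DiT1 (AT5G12860), the 2-oxoglutarate translocator, were not DEGs against Col-0 or klu, with fold changes of -0.25 to -0.09.

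Among the peroxisomal enzymes, AGT1 (AT2G13360), serine:glyoxylate aminotransferase, had 593, 662 and 645 FPKM in 35S:KLU1, with 677, 669.9 and 632 in 35S:KLU2, against 904, 688 and 758 in klu and 745, 814 and 829 in Col-0. HPR1 (AT1G68010), hydroxypyruvate reductase, had 277, 303 and 306 FPKM in 35S:KLU1, with 304, 317 and 291 in 35S:KLU2, against 418, 314 and 344 in klu and 354, 358 and 403 in Col-0. Both were lower in every 35S:KLU library than in any Col-0 library (AGT1 -0.30 ± 0.08, adjusted p = 0.0248, HPR1 -0.31 ± 0.09, adjusted p = 0.0248). GOX1 (AT3G14420) and GOX2 (AT3G14415) are neighbouring genes for glycolate oxidase, the enzyme that turns glycolate into glyoxylate. GOX1 had 568, 602 and 547 FPKM in 35S:KLU1, with 584, 605 and 589 in 35S:KLU2, against 734, 569 and 618 in klu and 602, 692 and 689 in Col-0. GOX2 had 276, 297 and 283 FPKM in 35S:KLU1, with 312, 308 and 298 in 35S:KLU2, against 392, 309 and 319 in klu and 326, 362 and 363 in Col-0. The 35S:KLU libraries lay below the Col-0 libraries for GOX2 and overlapped with them for GOX1. GOX2 was a DEG against Col-0 (-0.24 ± 0.08, adjusted p = 0.0406), and GOX1 was not (-0.18 ± 0.08, adjusted p = 0.139). Glutamate:glyoxylate aminotransferase has a major and a minor gene. GGT1 (AT1G23310), the major one, was at 742 to 801 FPKM in 35S:KLU, 745 to 861 in klu and 732 to 852 FPKM in Col-0, with full overlap (-0.01 ± 0.07, adjusted p = 0.913, 95% confidence interval -0.16 to 0.13). The minor gene GGT2 (AT1G70580) was not a DEG either (-0.18 ± 0.08, adjusted p = 0.142). CAT2 (AT4G35090), the catalase that removes hydrogen peroxide formed by glycolate oxidase, was at 150.4 to 176 FPKM in 35S:KLU, 161 to 203 in klu and 149.9 to 180.3 FPKM in Col-0 (-0.03 ± 0.08, adjusted p = 0.863, interval -0.21 to 0.16).

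Each transgenic line was also set against the same reference plants. For RCA the fold change against Col-0 was -0.55 in 35S:KLU1 and -0.59 in 35S:KLU2, for SBPASE -0.42 and -0.37, for GLDP1 -0.43 and -0.47, and for PLGG1 -0.41 and -0.34, in that order of lines, each with an adjusted p under 0.05. Against Col-0, 7 Calvin cycle genes and 8 photorespiration genes were DEGs in 35S:KLU1 (11.7% of all genes tested), and 9 and 4 in 35S:KLU2 (16% of all genes tested). Against klu the counts were 6 and 8 in 35S:KLU1 (18.7% of all genes) and 7 and 4 in 35S:KLU2 (22.1%). Directly compared, 35S:KLU2 and 35S:KLU1 differed in none of the 43 genes by limma, and none had an unadjusted p under 0.05. Fold changes between the lines ranged between -0.14 and 0.18, and 2 of all genes tested were DEGs (0.0102%).

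The loss of KLU was tested by comparing klu with Col-0. None of the 43 genes was a DEG by limma, beside 12 of all genes tested (0.061%), and 1 gene, TKL2 (AT2G45290), had an unadjusted p under 0.05. TKL2, a minor transketolase gene, had 7.3, 6.24 and 5.75 FPKM in 35S:KLU1, with 5.69, 5.66 and 5.77 in 35S:KLU2, against 3.38, 6.6 and 6.98 in klu and 7.83, 8.56 and 8.29 in Col-0, with klu below Col-0 in every library (log2 fold change -0.52 ± 0.18, adjusted p = 0.730). The medians were -0.05 for the Calvin cycle and -0.03 for photorespiration, against -0.01 over all genes tested. For RCA the fold change was -0.07 (95% confidence interval -0.31 to 0.17) and for GLDP1 -0.14 (-0.34 to 0.06). Intervals this wide leave room for changes as large as some of those measured in 35S:KLU. Without klu replicate 1 the medians were -0.14 for the Calvin cycle, with 23 of 24 values negative, and -0.08 for photorespiration, with 18 of 19 negative (0.05 over all genes tested). No alternative, with or without klu replicate 1, called any of the 43 genes in this comparison or between the lines.

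Ratios within the pathways were computed to see whether their parts moved together. The 15 ratios were chosen after the levels were known and are described without a test. RCA amounted to 7.93% ± 0.21 of the summed RBCS level in 35S:KLU (SD, n = 6), 9.88% ± 0.42 in klu and 10.7% ± 0.51 in Col-0 (n = 3 each), with no overlap between 35S:KLU and the other genotypes. The summed level of CP12-1 and CP12-2 was 437% ± 29 of that of PRK in 35S:KLU, 368% ± 10 in klu and 346% ± 16 in Col-0, again without overlap. Summed P protein genes (GLDP1 and GLDP2) amounted to 34.4% ± 2.7 of the summed GDCH1 and GDCH3 in 35S:KLU, 38.0% ± 1.7 in klu and 40.7% ± 0.95 in Col-0. mtLPD2 made up 32.5% ± 0.79 of both L protein genes in 35S:KLU, 26.0% ± 4.0 in klu and 26.7% ± 0.25 in Col-0. PGK1 made up 83.3% ± 0.75 of both PGK genes in 35S:KLU, 86.0% ± 0.53 in klu and 85.6% ± 0.30 in Col-0. The share of RBCS1A among the RBCS genes was 69.4% ± 1.3 in 35S:KLU, 66.6% ± 2.4 in klu and 66.8% ± 0.85 in Col-0. The photorespiration genes together amounted to 49.6% ± 0.93 of the Calvin cycle genes without RBCS in 35S:KLU, 47.5% ± 0.86 in klu and 47.1% ± 1.4 in Col-0.

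**Figure D4:**
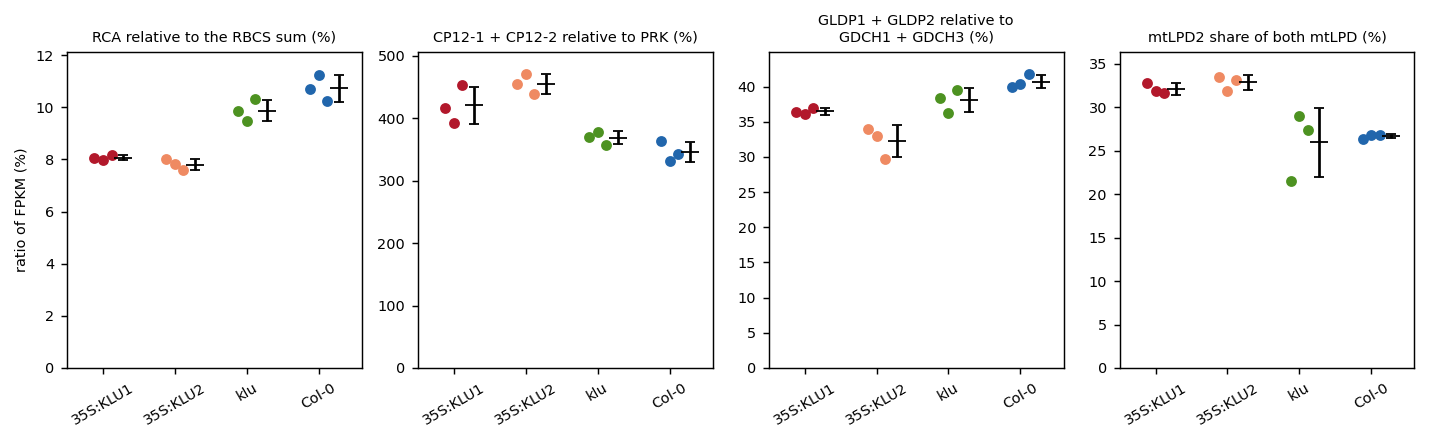
Ratios of FPKM within the pathways in every library (points, axes from 0) with the genotype mean and SD in black. RCA relative to the RBCS sum is lower in all 6 35S:KLU libraries than in any other (7.93% on average, against 9.88% in klu and 10.7% in Col-0), and CP12-1 with CP12-2 relative to PRK and the mtLPD2 share are higher.

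The genes next to these pathways were examined from lists drawn up by function. Of 15 other photorespiration genes and isoforms, 6 were DEGs against Col-0 (4 lower, 2 higher) and 7 against klu (4 lower, 3 higher), where 19.6% and 26.6% of all genes tested were DEGs. As shares these were 40% and 46.7%. Among the 4 lower genes in each count was AT5G36790, whose fragments cannot be told apart from those of PGLP1, already counted among the 19. Both genes listed for the recapture of photorespiratory ammonium fell. GLU1 (AT5G04140), ferredoxin-dependent glutamate synthase, had 166, 177 and 182 FPKM in 35S:KLU1, with 177, 191 and 189 in 35S:KLU2, against 252, 216 and 217 in klu and 234, 222 and 239 in Col-0 (-0.36 ± 0.06, adjusted p = 0.00260 against Col-0). GLN2 (AT5G35630), the chloroplast glutamine synthetase, had 622, 729 and 714 FPKM in 35S:KLU1, with 704, 713 and 669.5 in 35S:KLU2, against 946, 805 and 759.8 in klu and 864, 867 and 884 in Col-0 (-0.34 ± 0.08, adjusted p = 0.0103). Both were lower in every 35S:KLU library than in any other. BOU (AT5G46800), a mitochondrial carrier needed for photorespiration, had 54.9, 60.8 and 59.2 FPKM in 35S:KLU1, with 61.6, 60.6 and 57.5 in 35S:KLU2, against 83.7, 74.2 and 75.5 in klu and 72.8, 75.7 and 73.2 in Col-0 (-0.32 ± 0.06, adjusted p = 0.00283 against Col-0, -0.39 ± 0.06, adjusted p = 0.000575 against klu), also without overlap. In contrast, CAT3 (AT1G20620), another catalase gene, had 3382, 2842 and 3050.3 FPKM in 35S:KLU1, with 3338, 3422 and 3255 in 35S:KLU2, against 2070.5, 1858 and 2348 in klu and 2352, 2111 and 2660.1 in Col-0, and all 6 35S:KLU libraries lay above the others, at 135% of the Col-0 mean (0.44 ± 0.10, adjusted p = 0.00840). HAOX1 (AT3G14130), a hydroxy acid oxidase related to glycolate oxidase, was higher as well (0.50 ± 0.13, adjusted p = 0.0168 against Col-0, 0.63 ± 0.13, adjusted p = 0.00387 against klu), and GOX3 (AT4G18360), expressed at 3.07 FPKM or less, was higher than in klu (0.81 ± 0.16, adjusted p = 0.00307).

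**Figure D5:**
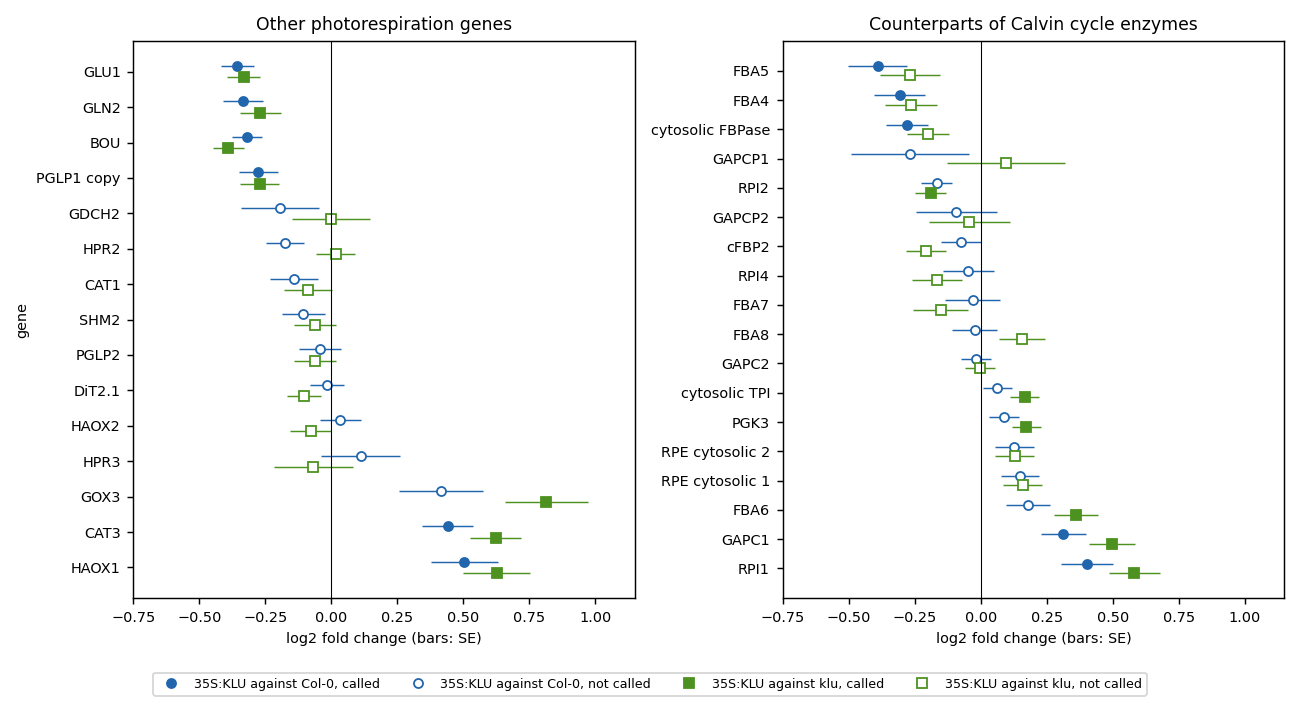
Log2 fold change with SE of 15 other photorespiration genes (left) and 18 cytosolic or other counterparts of the Calvin cycle enzymes (right) in 35S:KLU against Col-0 (circles) and against klu (squares). Filled symbols are DEGs. GLU1, GLN2 and BOU are lower, and CAT3, HAOX1, GAPC1 and RPI1 are higher, in both comparisons.

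The cytosolic and other counterparts of the Calvin cycle enzymes, which serve glycolysis, sucrose synthesis and the pentose phosphate pathway, did not share one direction. Of 18 genes, 5 were DEGs against Col-0 (2 higher, 3 lower) and 6 against klu (5 higher, 1 lower), with medians of -0.03 and 0.05. These shares, 27.8% and 33.3%, lay near the 19.6% and 26.6% of all genes tested. GAPC1 (AT3G04120), the cytosolic glyceraldehyde-3-phosphate dehydrogenase, had 726, 749.7 and 686 FPKM in 35S:KLU1, with 741, 681 and 742 in 35S:KLU2, against 433, 533 and 575 in klu and 539, 586 and 618 in Col-0, higher in every 35S:KLU library (0.31 ± 0.09, adjusted p = 0.0248 against Col-0, 0.50 ± 0.09, adjusted p = 0.00151 against klu), where chloroplast GAPA1 was lower. RPI1 (AT1G71100) was higher too (0.40 ± 0.10, adjusted p = 0.0143), where RPI3 of the chloroplast was not. FBA5 (-0.39 ± 0.11, adjusted p = 0.0302) and FBA4 (-0.31 ± 0.10, adjusted p = 0.0444), aldolases of this family, were lower than in Col-0. Among 10 genes for the assembly and folding of Rubisco, 1 was lower than in Col-0, CPN60B1 (AT1G55490) of the chloroplast chaperonin (-0.24 ± 0.06, adjusted p = 0.0220), and 4 were DEGs against klu, beside 19.6% and 26.6% of all genes tested. Of these 4, 3 were lower, the largest of them RAF2 (-0.21 ± 0.07, adjusted p = 0.0379) and BSD2 (-0.21 ± 0.06, adjusted p = 0.0186).

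Other measures moved with these results, and their part in them was not tested. The summed level of the mesophyll markers was 34580 to 38908 FPKM in 35S:KLU, 42367 to 50518 in klu and 42818 to 45387 FPKM in Col-0, and 1 of these 3 markers, CA1 (AT3G01500) for carbonic anhydrase, was a DEG (lower in 35S:KLU, -0.40 ± 0.10, adjusted p = 0.0193 against Col-0). All 3 had lower values in each 35S:KLU library than in any Col-0 library (11.8% of all genes tested), and 2 of the 3 than in any klu library (9.79%). CAB1 and CAB3 were not DEGs in either comparison (limma adjusted p = 0.0907 and 0.229 against Col-0), where 19.6% and 26.6% of all genes tested were DEGs. Of 8 regulators 3 were DEGs against Col-0 and 4 against klu, beside 19.6% and 26.6% of all genes tested. GLK1 (AT2G20570) was higher (0.23 ± 0.06, adjusted p = 0.0187 against Col-0) and GLK2 (AT5G44190) lower (-0.28 ± 0.06, adjusted p = 0.00899), both of which encode transcription factors of chloroplast development. TRXF2 (AT5G16400), a thioredoxin that activates Calvin cycle enzymes in light, was lower than in klu (-0.25 ± 0.07, adjusted p = 0.0177). GNC (AT5G56860) was lower than in klu as well (-0.36 ± 0.09, adjusted p = 0.0103). CGA1 (AT4G26150), with a mean of 2.79 FPKM over all libraries, was higher than in Col-0 (0.49 ± 0.12, adjusted p = 0.0153). Of 10 clock genes 4 were DEGs against Col-0 (19.6% of all genes tested), PRR9 (AT2G46790) lower (-0.29 ± 0.08, adjusted p = 0.0204) and TOC1 (0.28 ± 0.08, adjusted p = 0.0260), ELF3 (0.24 ± 0.07, adjusted p = 0.0353) and LUX (0.23 ± 0.06, adjusted p = 0.0207) higher. Taken line by line, 0 of the 10 were DEGs in 35S:KLU1 and 5 in 35S:KLU2, beside 11.7% and 16% of all genes tested, with PRR9 at -0.07 in 35S:KLU1 and -0.52 in 35S:KLU2. Between the lines none of the 10 was a DEG. Against klu 5 of the 10 were DEGs (26.6% of all genes tested), and line by line 1 in 35S:KLU1 and 8 in 35S:KLU2 (18.7% and 22.1%). Of 5 sugar starvation genes 4 were lower than in Col-0 (8.18% of all genes tested), among them DIN1 (-0.87 ± 0.19, adjusted p = 0.00950). Against klu 3 of the 5 were lower (10.7% of all genes tested). DIN2, lower than in Col-0, was at 0 FPKM in klu and not a DEG against klu (0.52 ± 0.33, adjusted p = 0.268). The senescence markers did not share one direction. SAG12 (AT5G45890) was at 0 to 0.8 FPKM in 35S:KLU, 0 in all klu libraries and 5.11 to 47.1 FPKM in Col-0, and was a DEG, lower in 35S:KLU than in Col-0 (adjusted p = 0.000371). It was also lower in klu than in Col-0 (-4.47 ± 0.58, adjusted p = 0.0150) and was not a DEG between 35S:KLU and klu (adjusted p = 0.776). SAG13 (AT2G29350) was at 65.5 to 107 FPKM in 35S:KLU, 5.07 to 20.03 in klu and 27.3 to 38.7 FPKM in Col-0, and was higher in 35S:KLU than in Col-0 (1.28 ± 0.31, adjusted p = 0.0135) and klu (2.67 ± 0.31, adjusted p = 0.000151). Of the other senescence markers, ORE1 (AT5G39610) was lower than in klu (-0.75 ± 0.22, adjusted p = 0.0258) and NYE1 (AT4G22920) was not a DEG in either comparison. The sum of 2 guard cell markers was 20.8 to 26.8 FPKM in 35S:KLU, 24.3 to 29.1 in klu and 24.2 to 27.3 FPKM in Col-0, with overlap.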

How the data were processed

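RNA was taken from single plants, converted to strand-specific poly(A) libraries and sequenced as read pairs. As described by the authors, reads were aligned to the TAIR10 genome with STAR and quantified with RSEM 1.2.22, and the deposited table holds FPKM for 33323 genes in 12 libraries, with each genotype's 3 plants as replicates. Columns holding the authors' own fold changes and p-values (DESeq2) were not used, and 0 other per-sample columns were left out. FPKM keep no total counts, so depth is known only relative to another library and the precision rests on the 3 plants per genotype.

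Here log2(FPKM + 1) was fitted for the 4 genotypes with limma 3.58.1 (R 4.3.3, trend), for the 19660 genes that reached 0.5 FPKM in 3 or more libraries, and 35S:KLU was the mean of both lines. Differences of log2(FPKM + 1) are given as fold changes, and the added 1 shrinks those of weakly expressed genes. p-values are two-sided and were adjusted by Benjamini-Hochberg over all genes tested, with DEGs at under 0.05. The code was tested on simulated data.

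The members and gene lists were chosen with earlier results of these data known. Every member may be named. Values per library are given for DEGs and for genes with close copies, and for other lists for up to 4 DEGs with the largest changes, or any gene of a list of 12 or fewer. Alternatives were another pseudocount (0.1), no filter, 3 scalings, library weights, a replicate block, models of only the groups compared, and leaving out each of the 12 libraries. Promoters are the 250 bases before the start in RefSeq's TAIR10.1 annotation, and shared sequence was counted in stretches of 100 bases. Python 3.11.15 with pandas 2.3.3 and matplotlib 3.10.9 were used.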

Additional observations from a re-analysis of the deposited data

How the results depend on the processing

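For single member genes, 3283 of 3440 values recomputed under the 20 alternatives kept their side of the threshold, 119 no longer passed it and 38 newly passed it. Of the 3440, 1720 came from klu against Col-0 and from the lines, where no member was a DEG and no call could be lost. Against Col-0, 7 of 9 Calvin cycle DEGs and 3 of 11 photorespiration DEGs were kept under all 20 alternatives. Against klu, 6 of 9 and 4 of 9 were kept. The sign changed in 174 of the 3440 values, 149 in the comparisons of klu with Col-0 and of the lines, and in no DEG: the largest was RBCS1B against klu, at -0.20, and 0.04 without klu replicate 1. Against Col-0, 9 Calvin cycle genes were DEGs, with 14 under library weights and 7 to 13 when 1 library at a time was left out. The share of all genes tested moved too, from 19.6% to 31.2% under library weights and to 11.2% to 28.5% with 1 library left out. For photorespiration the 11 DEGs against Col-0 became 4 with median-of-ratios scaling (22.7% of all genes tested) and 3 to 12 with 1 library left out. Against klu the 9 photorespiration DEGs became 5 under library weights and 4 to 11 with 1 library left out, and the 9 Calvin cycle DEGs 6 to 13. The share of all genes tested against klu was 26.6%, with 24.1% under library weights and 21.7% to 27.1% with 1 library left out. With a replicate block the counts were 9 Calvin cycle and 8 photorespiration genes against Col-0, and 7 and 7 against klu, and the comparisons of klu with Col-0 and of the lines kept 0. Over all genes tested the block gave 17.9% against Col-0 and 24.7% against klu. The 18 correlations of deviations between same-numbered plants lay between -0.159 and 0.133, and those between differently numbered plants between -0.145 and 0.173. Whether same-numbered plants shared more than a number cannot be told from these values. A 1-gene reversal was seen outside the members: GAPCP1, a plastid glycolytic enzyme, was at 0.10 on the log2 scale against klu and not a DEG, at -0.33 and a DEG without klu replicate 1, and at up to 0.34 without klu replicate 2.

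Over all genes tested, DEGs that were higher in 35S:KLU made up 59.9% against klu, but 51.6% when columns were scaled by the median of ratios, 49.8% by the upper quartile, 50.1% with library weights and 45% without klu replicate 1. Leaving out klu replicate 2 or 3 gave 64.3% and 65.5%. Against Col-0 they made up 58.2%, with 50.6% by the upper quartile, 50% without Col-0 replicate 1 and 65.3% without Col-0 replicate 3. The largest shift of the median over all genes was under 0.1. The causes were not tested. With 3 plants per genotype, changes of about 0.3 on the log2 scale lie near the limit of what the test called, so a gene that missed the threshold is not shown to be unaffected.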
